A study of Mus musculus with 8 samples.

Results

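The genes described here are 10 of the 31053 in the deposited count table: the Toll-like receptor genes Tlr1, Tlr2, Tlr3, Tlr7, Tlr9, Tlr11 and Tlr12, and Unc93b1, Cnpy3 and Slc15a4, whose products fold, escort or serve receptors of the endosome. They were taken by gene symbol, and each symbol matched a single row. RNA-seq was done on spleen cells of the mouse, labelled conventional dendritic cells (cDCs) and sorted as lineage-negative, MHC class II-positive and CD11c-positive. Before the sort, a fraction enriched for dendritic cells was cultured with 100 nM CpG-B, a synthetic DNA ligand of TLR9, for 9 h. There were 4 libraries of genotype WT (D142, D150, D154 and D164) and 4 of genotype CKO (D146, D149, D163 and D169). All cells of both genotypes saw the ligand, so the values compare genotypes after stimulation and not stimulation itself. Which gene CKO lacks, in which cells, and the strain and age of the mice are not stated in the labels, so the deletion was not checked.

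Toll-like receptors recognise molecules of microbes and signal through adaptors on their cytoplasmic side. TLR3, TLR7 and TLR9 sense double-stranded RNA, single-stranded RNA and unmethylated CpG DNA inside endosomes, and the mouse receptors TLR11 and TLR12 sense parasite profilin there. TLR1 and TLR2, in contrast, form a heterodimer at the cell surface that binds bacterial lipopeptides, so they are not endosomal receptors in the strict sense. CNPY3 works with the chaperone gp96 to fold Toll-like receptors in the endoplasmic reticulum, and UNC93B1 carries the nucleic acid sensors from there to endosomes, where proteases cut them into their active form. SLC15A4 is an endolysosomal transporter that holds the adaptor TASL, through which IRF5 is activated.

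The promoter windows of 3 genes are shown because they belong to genes at different levels in these cells: Cnpy3, the most abundant of the 10 with an entry in the promoter table, Tlr9, the receptor of the ligand in the culture, and Tlr11, the least abundant. Each runs from 250 bases before to 50 bases after the RefSeq start on GRCm38.p6, written 5′ to 3′ on the strand of the gene. Capitals mark 3 motifs searched on both strands: the CCAAT box, a box of the letters GAGGAA, which holds the core bound by PU.1 and related factors, and a GAAA repeat, in which those letters occur again after 2 bases of any kind, as in interferon response elements. No hit of one motif overlapped a hit of another in these 3 windows.
Cnpy3 (chr17:46752165-46752464, minus strand): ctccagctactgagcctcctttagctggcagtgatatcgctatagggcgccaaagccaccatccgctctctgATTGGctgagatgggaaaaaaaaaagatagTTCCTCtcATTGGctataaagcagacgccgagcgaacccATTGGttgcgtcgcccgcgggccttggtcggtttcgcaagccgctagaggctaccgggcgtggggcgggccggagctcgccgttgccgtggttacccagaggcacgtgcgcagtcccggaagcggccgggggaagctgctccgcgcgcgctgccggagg
Tlr9 (chr9:106222348-106222647, plus strand): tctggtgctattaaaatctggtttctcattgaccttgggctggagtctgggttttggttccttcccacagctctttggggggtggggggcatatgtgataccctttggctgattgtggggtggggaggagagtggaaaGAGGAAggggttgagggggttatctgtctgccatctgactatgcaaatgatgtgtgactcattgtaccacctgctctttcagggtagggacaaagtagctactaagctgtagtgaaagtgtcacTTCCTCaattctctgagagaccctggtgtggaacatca
Tlr11 (chr14:50357664-50357963, plus strand): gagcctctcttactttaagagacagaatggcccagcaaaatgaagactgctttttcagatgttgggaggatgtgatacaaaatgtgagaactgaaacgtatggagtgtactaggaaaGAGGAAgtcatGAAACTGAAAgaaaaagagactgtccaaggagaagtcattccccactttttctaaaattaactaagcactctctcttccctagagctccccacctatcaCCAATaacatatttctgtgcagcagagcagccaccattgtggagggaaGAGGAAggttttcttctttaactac

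The Cnpy3 window held 30 CpG dinucleotides and 63.0% G and C, the Tlr9 window 0 CpG and 49.7%, and the Tlr11 window 1 CpG and 42.0%. Across 32544 promoter windows of this length the median was 7 CpG, with quartiles of 3 and 20. The CCAAT box occurred 3 times in the Cnpy3 window, at positions -178, -140 and -109 from the start, and 1 time in the Tlr11 window; 37.4% of all windows held it. The GAGGAA box occurred 2 times in the Tlr9 window, 2 times in the Tlr11 window and 1 time in the Cnpy3 window, against 28.1% of all windows with at least 1. The GAAA repeat was found only in the Tlr11 window among the 3, at position -122 from the start, and in 3.45% of all windows. A match to letters is a description of the window and not evidence of binding. Of the 10 genes, 8 had a promoter entry; Unc93b1 and Tlr7 did not.

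Total counts ranged from 25304765 to 40950088 per library, so 1 count stood for 0.0254 to 0.0415 CPM, the unit of counts scaled to a common library size (TMM method). The first principal component (36% of the variance) separated the genotypes and the second (19%) set CKO D149 apart from the other 7 libraries. The general cDC genes Zbtb46 and Flt3 averaged 244 and 103 CPM over the WT libraries and 268 and 114 CPM over the CKO libraries. Itgax, which encodes the CD11c used in the sort, averaged 6.97 CPM in WT and 8.67 in CKO. Of the cDC1 markers Irf8 and Batf3 averaged 3385.6 and 231 CPM in WT, but Xcr1 and Clec9a averaged under 1 CPM in both genotypes. Of the cDC2 markers Irf4 and Sirpa averaged 157 and 50.6 CPM in WT, but Clec10a and Mgl2 were at or near 0 in both genotypes. Summed over 10 B cell markers, the level ran from 34.6 to 70.3 CPM in WT and from 41.3 to 156 CPM in CKO, and 2 of 8 tested markers were higher in CKO. Summed over 10 macrophage markers it ran from 97.0 to 145 CPM in WT and from 40.4 to 87.5 CPM in CKO. Most of this was Spic, which averaged 77.6 CPM in WT and 41.1 in CKO. Of the 7 tested, Spic alone was called, lower in CKO. C1qa and Cd5l averaged under 0.5 CPM, and no marker of either list was at 0 in all libraries. Of the other 8 lists, T cell markers had 2 higher, plasmacytoid dendritic cell markers 2 higher and 1 lower, and monocyte and erythroid markers 1 lower each; cDC1, cDC2, NK cell and neutrophil markers had none, and Ly6g and Retnlg were at 0 throughout. No summed level passed an exact two-sided permutation test adjusted over 10 marker lists (adjusted p = 0.285 for the B cell and macrophage sums and 0.285 to 0.714 for the others; the macrophage sum had the smallest p that 4 against 4 allows, 0.0286). In bulk RNA, fewer cells of a type and less RNA per cell cannot be told apart.

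Levels of different genes were compared as CPM per kilobase of gene length. In WT the order began with Unc93b1 at 130.3 ± 26.4 CPM per kb and Cnpy3 at 126 ± 17.4 (mean ± SD, n = 4). These neighbours did not differ beyond their spread: Unc93b1 exceeded Cnpy3 in 3 of the 8 libraries. Both lay above 95.9% or more of tested genes in WT. Tlr2 followed at 5.72 ± 0.946 CPM per kb, 22.1-fold below Cnpy3, and no library of either genotype brought them together. Slc15a4 at 5.23 ± 0.372, Tlr7 at 3.97 ± 1.06 and Tlr1 at 3.38 ± 0.745 CPM per kb came next, each overlapping its neighbour in the order.

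Tlr9, the receptor for the CpG-B in the culture, stood at 0.607 ± 0.17 CPM per kb in WT, 5.57-fold below Tlr1, and 21.3% of tested genes were lower; it was below Tlr1 in all 8 libraries. Tlr12 overlapped it at 0.466 ± 0.0931 CPM per kb. Tlr3 was lower than Tlr12 in every library, at 0.072 ± 0.0289 CPM per kb, with 2.03% of tested genes below it, and Tlr11 came last. In CKO the same blocks held, and within them Cnpy3 stood in place 1 at 99.9 ± 10.7 and Tlr7 in place 3 at 5.61 ± 1.34 CPM per kb. Tlr2 stood above Tlr7 in WT, narrowly without overlap (5.14 to 7.12 and 2.64 to 5.13 CPM per kb). In CKO their ranges overlapped (3.94 to 7.18 and 4.05 to 7.32). Within each CKO library Tlr7 stood above Tlr2, narrowly in D149 (7.32 and 7.18) and D169 (4.05 and 3.94). This order was not tested.

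**Figure D1:**
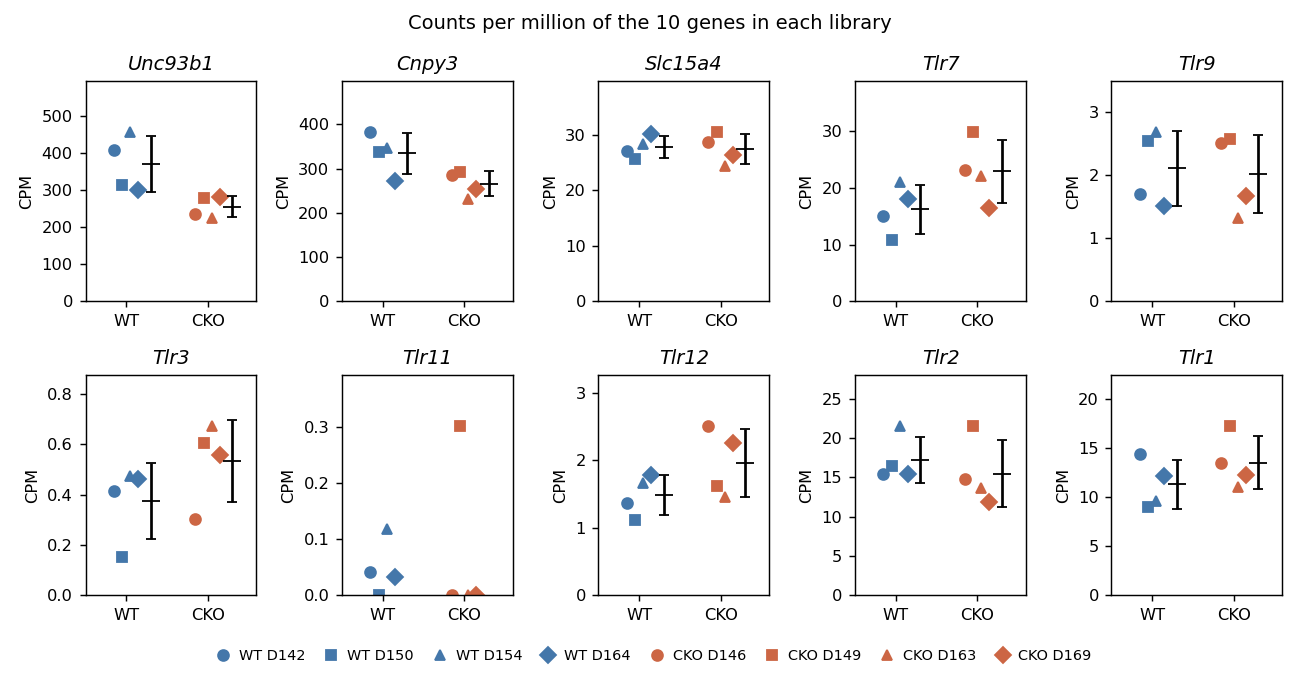
Scaled counts (CPM, vertical axes from 0, each gene on its own scale) of the 10 genes in the 4 WT and 4 CKO libraries; each symbol is a library, and black bars give the mean ± SD, left out for Tlr11, where 4 libraries had no count. The 4 CKO libraries of Unc93b1 sit between 225 and 282 CPM, below the 301 to 457 CPM of WT, while the genotypes overlap for the other 9 genes.

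None of the 9 genes tested passed the threshold (edgeR's quasi-likelihood test, Benjamini-Hochberg adjusted p of 0.05 over 11702 genes), where 8.87% of all tested genes did, 4.3% higher and 4.57% lower in CKO. At an unadjusted p of 0.05 there were 3 of 9, Unc93b1, Cnpy3 and Tlr7, against 28.6% of all tested genes (15.4% higher and 13.2% lower). DESeq2 called 1, Unc93b1, where it called 16.4% of all genes with an adjusted p, and limma-voom called 0, where it called 10.1%. The 9 genes had a median log2 fold change of -0.02, with 4 above 0 and 5 below, and all tested genes a median of 0.03. Groups did not overlap for 1 of the 9, Unc93b1, against 15.9% of tested genes, and 8.09% lay wholly lower in CKO as it did. Tlr11 had too few counts to be tested.

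Of the trafficking factors, Unc93b1 (chromosome 19, 3935186 to 3949340, plus strand, mm10) came nearest to the threshold. It stood at 409 CPM in WT D142, 314 in D150, 457 in D154 and 301 in D164. In CKO it stood at 236 CPM in D146, 278 in D149, 225 in D163 and 282 in D169, so every CKO library lay below every WT library. This gave a log2 fold change of -0.54 ± 0.15 (SE), a 95% interval from -0.88 to -0.20 and an adjusted p of 0.052 in edgeR. All 18 alternative fits put Unc93b1 lower in CKO, and 4 of them called it: DESeq2 (adjusted p = 0.0163), no low-count filter (0.0477), a mean of at least 5 CPM (0.0463) and the fit without WT D164 (0.0334). After each library's trend with GC content and length was removed, the log2 fold change was -0.27 (adjusted p = 0.308), and with total-count scaling it was -0.37 where the median of all genes was 0.19. The macrophage marker sum, most of it Spic, was also lower in all 4 CKO libraries, and its part in the Unc93b1 values was not tested.

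Cnpy3 (chromosome 17, 46735705 to 46752214, minus strand) stood at 383, 338, 347 and 272 CPM in WT D142, D150, D154 and D164. In CKO D146, D149, D163 and D169 it stood at 285, 293, 232 and 253 CPM. WT D164 lay among the CKO libraries and the other 3 WT libraries lay above all 4. Its log2 fold change was -0.34 ± 0.13 (SE; 95% interval -0.63 to -0.04), with an adjusted p of 0.127 in edgeR, and it was -0.05 after the GC and length trend was removed. The longest transcripts of Unc93b1 and Cnpy3 have 57.3% and 57.7% G and C, against a median of 49.3% over tested genes. Across 11689 genes, which are not independent replicates, log2 fold changes had a Spearman correlation of -0.30 with GC content. The part of this trend in the Unc93b1 and Cnpy3 values was not tested beyond that fit. The fitted trend was lowest for both genes in CKO D149, at -0.27 for Unc93b1 and -0.28 for Cnpy3 on the log2 scale.

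Slc15a4 (chromosome 5, 127595664 to 127632897, minus strand) was the steadiest of the 10. It ranged from 25.6 to 30.2 CPM over the WT libraries and from 24.3 to 30.5 over the CKO libraries, a coefficient of variation of 7.1% and 9.83%. Its log2 fold change was -0.02 ± 0.13 (SE), and the 95% interval of -0.29 to 0.26 left room for differences of that size in either direction. The sign was positive with total-count scaling (0.14). A predicted gene on the other strand, Gm43474, overlaps 8.04% of its exonic bases, and the counting is not stated to use strand.

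Among the nucleic acid sensors, Tlr9 (chromosome 9, 106222598 to 106226883, plus strand) had 41 to 100 counts per library. It stood at 1.70, 2.54, 2.69 and 1.51 CPM in WT D142, D150, D154 and D164. In CKO D146, D149, D163 and D169 it stood at 2.51, 2.57, 1.32 and 1.67 CPM. Each genotype held a pair of libraries above 2.5 CPM and a pair at 1.7 CPM or less, and the groups overlapped fully. The log2 fold change was -0.07 ± 0.31 (SE; 95% interval -0.75 to 0.61; edgeR adjusted p = 0.903), and its sign was positive in 7 of 17 alternative fits, among them total-count scaling (0.08).

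Tlr7 (chromosome X, 167304929 to 167330558, minus strand) had 364 to 844 counts per library, at 15.1, 10.8, 21.0 and 18.0 CPM in WT D142, D150, D154 and D164. In CKO D146, D149, D163 and D169 it stood at 23.1, 29.9, 22.2 and 16.5 CPM. Of the CKO libraries 3 lay above all WT libraries, and CKO D169 lay among them. The fold change was 0.50 ± 0.22 on the log2 scale (SE; 95% interval 0.01 to 0.99), which did not pass (edgeR adjusted p = 0.167; range over 18 alternatives 0.0686 to 0.371). It was above 0 in all 18 alternatives, from 0.34 to 0.65. Tlr7 is also a B cell transcript. The B cell marker sum lay above the WT range in 3 of the 4 CKO libraries and was 41.3 CPM in CKO D149, although the sort was lineage-negative; its part in the Tlr7 values was not tested further. When mean B cell marker level was a covariate, the log2 fold change was 0.64 (adjusted p = 0.193). After each library's trend with GC content and length was removed, it was 0.37 (edgeR adjusted p = 0.266). The longest Tlr7 transcript has 41.0% G and C, below the median of 49.3% over tested genes. The part of this trend in the Tlr7 values was not tested beyond that fit.

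Tlr3 (chromosome 8, 45395665 to 45411080, minus strand) was close to the limit of detection, with 6 to 16 counts in the WT libraries and 11 to 23 in the CKO libraries. On the CPM scale WT D150 was lowest at 0.152 and CKO D163 highest at 0.674, and the groups overlapped. A log2 fold change of 0.52 ± 0.46 (SE; edgeR adjusted p = 0.49) had a 95% interval from -0.49 to 1.52, so these libraries did not settle its sign. The predicted gene Gm45542 overlaps 7.32% of its exonic bases on the other strand.

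Of the parasite profilin receptors, Tlr12 (chromosome 4, 128615443 to 128618619, minus strand) had 33 to 92 counts per library. It stood at 1.37, 1.12, 1.66 and 1.78 CPM in WT D142, D150, D154 and D164. In CKO D146, D149, D163 and D169 it stood at 2.51, 1.62, 1.46 and 2.26 CPM. CKO D146 and D169 lay above all WT libraries and the other two lay among them. Its log2 fold change was 0.41 ± 0.29 (SE; 95% interval -0.22 to 1.04; edgeR adjusted p = 0.372). Tlr11 (chromosome 14, 50357914 to 50363663, plus strand) had 6 counts over the WT libraries and 8 over the CKO libraries, all 8 of them in CKO D149. Its 0 counts in WT D150 and in 3 CKO libraries allow up to 3 counts, or 0.0762 to 0.111 CPM, from counting error alone. TLR11 and TLR12 act together in mouse cDC1. The 9 cDC1 markers summed to 3257.9 to 3885.4 CPM in WT and 2655 to 3717.3 in CKO, most of it Irf8. Of the 8 tested, 0 passed. When mean cDC1 minus mean cDC2 marker level was a covariate, the Tlr12 log2 fold change was 0.23 (edgeR adjusted p = 0.645). The part of these markers in the Tlr11 and Tlr12 values was not tested beyond that fit.

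The surface pair had values of opposite sign, and neither passed. Tlr2 (chromosome 3, 83836272 to 83841767, minus strand) stood at 15.5, 16.4, 21.5 and 15.5 CPM in WT D142, D150, D154 and D164. In CKO D146, D149, D163 and D169 it stood at 14.8, 21.6, 13.7 and 11.9 CPM. Of the CKO libraries 3 lay below all WT libraries, and CKO D149 lay above them. Its log2 fold change was -0.15 ± 0.20 (SE; 95% interval -0.59 to 0.28; edgeR adjusted p = 0.651), and it was -0.36 without CKO D149. Tlr1 (chromosome 5, 64924679 to 64933563, minus strand) ranged from 9.02 to 14.4 CPM in WT and from 11 to 17.3 in CKO, with CKO D149 again highest. Its log2 fold change was 0.26 ± 0.20 (SE; 95% interval -0.17 to 0.70; edgeR adjusted p = 0.411).

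**Figure D2:**
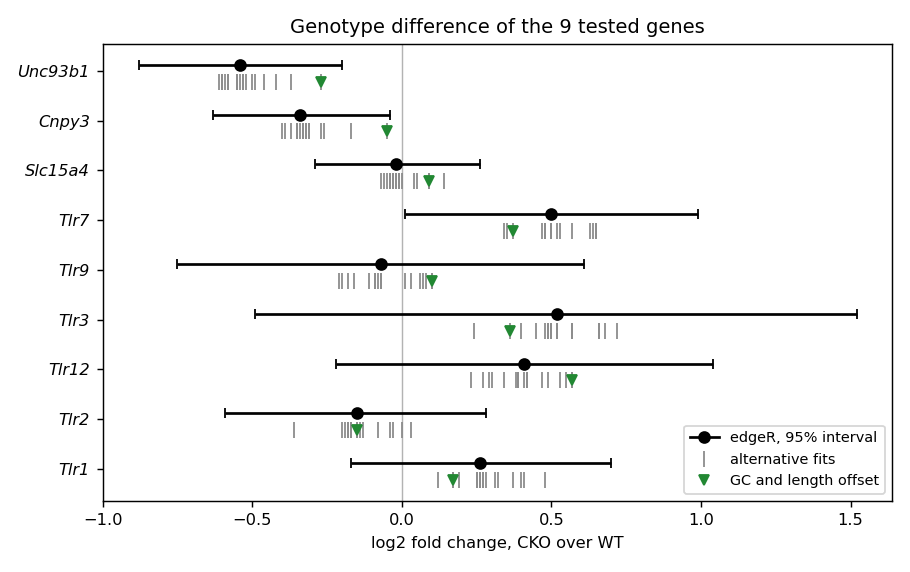
Log2 fold change of CKO over WT for the 9 tested genes: black points and bars give the edgeR value with its 95% interval, grey ticks the alternative fits and green triangles the fit with the GC and length trend removed. The intervals of Unc93b1, Cnpy3 and Tlr7 lie off 0, with unadjusted p-values that did not pass adjustment over all genes. The green triangles of Unc93b1 (-0.27), Cnpy3 (-0.05) and Tlr7 (0.37) lie nearer to 0.

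Shares among receptors do not depend on the scaling of libraries. Of the summed CPM per kb of 12 Toll-like receptor genes, the 7 above with Tlr4, Tlr5, Tlr6, Tlr8 and Tlr13, Tlr2 took the largest share in WT at 35.9 ± 4.66% (SD, n = 4), then Tlr7 at 24.5 ± 3.9% and Tlr1 at 21.3 ± 4.67%. In CKO Tlr7 led at 30.4 ± 3.04%, followed by Tlr2 at 27.7 ± 1.82% and Tlr1 at 22.1 ± 1.51%. The Tlr2 share was 31.4% to 40.6% over the WT libraries and 25.9% to 29.8% over the CKO libraries, without overlap. No other of the 12 shares was without overlap, among them that of Tlr7 (19.7% to 28.2% and 26.7% to 34.1%). The Tlr2 level itself overlapped (15.5 to 21.5 CPM in WT and 11.9 to 21.6 in CKO). Groups did not overlap in level for 15.9% of all tested genes. Tlr13, a sensor of bacterial ribosomal RNA that also uses UNC93B1, took 7.9 ± 1.56% in WT and 9.25 ± 1.05% in CKO. Tlr9 took 3.85 ± 1.26% and 3.13 ± 0.621%. These shares were computed after the values of the single genes were seen and were not tested, and a share that falls can do so because another rises. They were not corrected for each library's trend with GC content and length.

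Ratios of CPM per kb within a library were looked at in the same way, without a test. There were 34.0 ± 8.03 Unc93b1 for each Tlr7 in WT (SD, n = 4), and in the CKO libraries 16.8 ± 5.19, where CKO D169 stood at 24.5, just above WT D164 at 24.0. The ratio of Unc93b1 to Tlr9 was 224 ± 60.4 in WT and 166 ± 49.2 in CKO. Tlr7 exceeded Tlr9 in every library, from 3.61-fold in WT D150 to 14.3-fold in CKO D163. The groups overlapped for each of these ratios. The ratios were not corrected for each library's trend with GC content and length, which had opposite signs for Unc93b1 and Tlr7 in every library. On the log2 scale it was 0.18 and -0.1 in WT D150 and -0.27 and 0.11 in CKO D149.

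**Figure D3:**
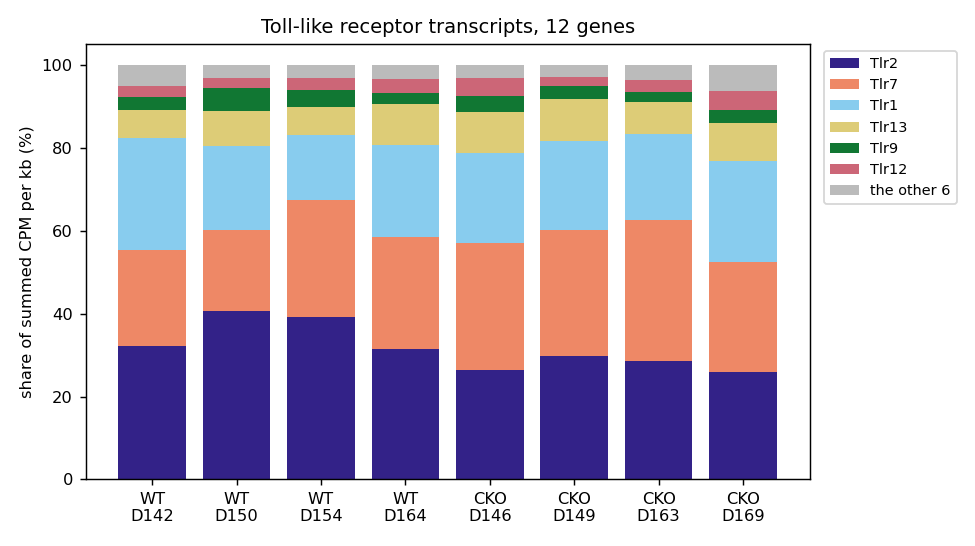
Share (%, vertical axis from 0) of each Toll-like receptor gene in the summed CPM per kb of 12 receptor genes, 1 bar per library, with the 6 rarest genes joined in grey. The Tlr2 segment spans 31.4% to 40.6% in the WT bars and 25.9% to 29.8% in the CKO bars, and the other shares overlap. Tlr2, Tlr7 and Tlr1 make up most of every bar.

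Across the 8 libraries Pearson r between the 9 tested genes ran from -0.5 (Tlr3 with Cnpy3) to 0.83, and no pair passed adjustment over the pairs. The closest of the 36 pairs was Unc93b1 with Cnpy3 (Pearson r = 0.83, exact permutation p = 0.0111, adjusted p = 0.401; Spearman rho = 0.79, exact permutation p = 0.0279, adjusted p = 0.503), which did not pass adjustment over the pairs. Without the 2 libraries farthest from the median of Unc93b1, r was 0.63. Both genes had negative log2 fold changes, so r over the 8 libraries includes the genotype split. For the 36 pairs, r with each genotype's mean removed was not computed, and 4 libraries are too few for a value within a single genotype. Likeness was read over genes with a mean of 5 CPM or more, leaving out predicted or clone-named genes and immunoglobulin or T cell receptor segments. Among these, the log2 CPM most like that of Unc93b1 belonged to Hmox2 (Pearson r = 0.986 over 8 libraries, as a description) and Lgals9 (0.985). They were among 178 genes with r over 0.9. For Cnpy3 they were Rps19 (0.986) and Orai1 (0.979), among 187 such genes. The receptors had fewer genes with r over 0.9, from 0 for Tlr12 to 13 for Tlr1. Tlr9 and Tlr12 had only 33 to 100 counts per library, and the part of low counts in this was not tested. Tlr7 was most like Cd44 (0.92) and Xrn1 (0.906), Tlr9 most like Arhgap22 (0.912) and Nrp1 (0.904), and Tlr12 most like Tmem268 (0.896) and Mctp2 (0.868). Tlr1 was most like Srrm2 (0.966) and Supt16 (0.954), Tlr2 most like Dek (0.962) and Nrbf2 (0.957), and Slc15a4 most like Prr5l (0.933) and Frmd4a (0.894). For each, 8026 or 8027 genes were compared, over libraries that share the genotype split and their depth. With each genotype's mean removed, r ran from 0.803 for Tlr12 with Mctp2 to 0.981 for Tlr2 with Nrbf2. It was 0.965 for Unc93b1 with Hmox2 and 0.975 for Cnpy3 with Rps19. These partners were picked by r in the same libraries.

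The rest of the pathway was read from 6 lists of 46 genes, of which 42 were tested: 4 were lower in CKO, 0 higher and 38 did not pass. Of all tested genes 8.87% were called, 4.57% lower and 4.3% higher, so the 4 of 42 called lay near the share for both directions. The median log2 fold change of the 42 tested genes was -0.04. The 4 called genes were spread over 4 lists. Lgmn, the asparagine endopeptidase that helps to cut TLR9 in mouse dendritic cells, was at 1057.2 to 1262.7 CPM in WT and 546 to 833 in CKO (log2 fold change -0.77 ± 0.15, SE; edgeR adjusted p = 0.0166). All 5 tested proteases of that list had negative values, with a median of -0.38, but Ctsb (-0.43; adjusted p = 0.176 in edgeR) and the other 3 did not pass, and exons of Ctsb overlap Fdft1. Dnase1l3, a secreted DNase, was at 71.1 to 110.3 CPM in WT and 44.3 to 66.7 in CKO (-0.68 ± 0.16; edgeR adjusted p = 0.0302). Of the other 8 genes of nucleic acid handling, Hmgb1, a DNA-binding protein that can carry nucleic acids to receptors, had the smallest p, with a log2 fold change of 0.47 and an adjusted p of 0.104 in edgeR.

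Ly96, which encodes the TLR4 co-receptor MD-2, was at 40.4 to 50.0 CPM in WT and 27.7 to 36.3 in CKO (-0.53 ± 0.13, SE; edgeR adjusted p = 0.0333). In the same list of 9 co-receptors and chaperones, Cnpy4, a relative of Cnpy3, had a log2 fold change of -0.52 and did not pass (adjusted p = 0.0945 in edgeR). Hsp90b1, which encodes gp96, is named beside Ly96 and Cnpy4 after its values were seen because it is the partner of CNPY3: its WT libraries averaged 316 ± 4.33 CPM and its CKO libraries 307 ± 18.8 (SD, n = 4), with a log2 fold change of -0.04 ± 0.10. Ap3s1, a subunit of the AP-3 adaptor that sorts endosomal receptors, was at 96.9 to 117 CPM in WT and 75.5 to 86.7 in CKO (-0.43 ± 0.11, SE; edgeR adjusted p = 0.0346). The other 11 sorting genes did not pass, with Pikfyve, a lipid kinase of endosomes, nearest at 0.42 (adjusted p = 0.192 in edgeR). Of the partners and relatives of SLC15A4 none of 4 tested passed. Irf5, the factor activated through TASL, stood at 985 to 1250.7 CPM in WT and 701 to 981 in CKO (-0.45 ± 0.14, edgeR adjusted p = 0.0658). Slc15a3, an endolysosomal relative of Slc15a4, had a log2 fold change of 0.09 (adjusted p = 0.79 in edgeR). Exons of Irf5 overlap Tnpo3, and 28.06% of the exonic bases of Slc15a3 overlap Tmem132a. For Hsp90b1, 15.67% of exonic bases overlap other genes. Among the other Toll-like receptors 3 of 5 were tested and none passed, with Tlr13 at 0.46 ± 0.24 and Tlr6 at 0.16 ± 0.34 (SE).

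All 4 calls were lost without WT D150, without WT D154 or without CKO D163, and with the B cell marker covariate. Over all genes those fits called 82, 138, 70 and 342, against 1038 in the main fit. All but the call of Lgmn were lost with the cDC1 minus cDC2 covariate, a fit that called 292 over all genes. The highest adjusted p over the 18 alternatives was 0.0613 for Lgmn, 0.112 for Dnase1l3, 0.131 for Ap3s1 and 0.14 for Ly96. Without WT D142 or without CKO D169, Lgmn alone of the 4 kept its call, and Ap3s1 also lost it without CKO D146. The macrophage marker sum, most of it Spic, was lower in all 4 CKO libraries as well, and its part in these 4 genes was not tested. Ly96 and Ap3s1 also lost their calls with total-count scaling. Over the 18 alternatives all 4 kept a negative log2 fold change, from -0.88 to -0.61 for Lgmn, -0.77 to -0.52 for Dnase1l3, -0.62 to -0.37 for Ly96 and -0.47 to -0.27 for Ap3s1.

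**Figure D4:**
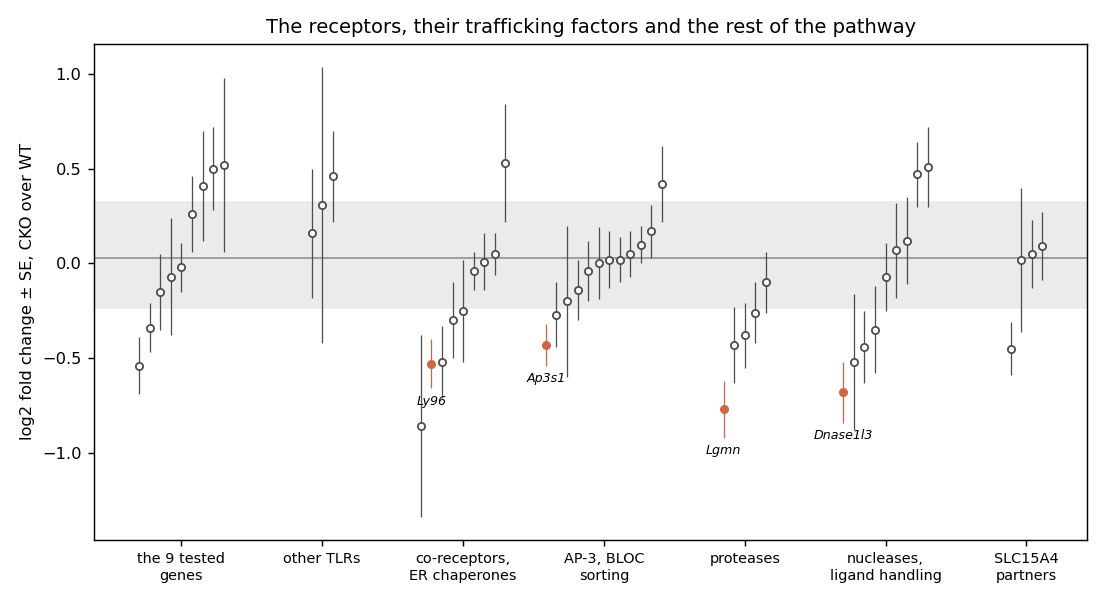
Log2 fold change ± SE of CKO over WT for the 9 tested genes and for 6 lists of other pathway genes, each point a gene; filled orange points passed an adjusted p of 0.05, and the grey line and band give the median and quartiles of all tested genes. The 4 called genes, Lgmn (-0.77), Dnase1l3 (-0.68), Ly96 (-0.53) and Ap3s1 (-0.43), all lie below the band, and no gene of the first column is filled.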

How the data were processed

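Gene-level RNA-seq was measured in 8 libraries, 4 WT and 4 CKO, with groups taken from the labels' titles and genotypes. The authors deposited whole-number counts per gene, without normalization, together with each gene's position, strand and length (other values, in bases, per the file headers). Per the labels' protocols, cDNA was made with a SMART-Seq low-input kit. The tools HISAT2 2.2.1 and fastp 0.23.2 and the build mm10 are listed per the submitters' processing notes. How reads were counted, with which annotation and whether by strand, is not stated in the sources used here.

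The table was fitted whole with edgeR 4.0.16 in R 4.3.3 (filterByExpr, TMM, robust dispersions, quasi-likelihood F test, Benjamini-Hochberg over 11702 genes, threshold 0.05; SE is the log2 fold change divided by the square root of F). The test was checked on simulated data. CPM is TMM-scaled; log2 CPM had a prior count of 2. Alternatives were 18 fits: RLE, upper-quartile or total-count scaling, other low-count filters, DESeq2 1.42.0, limma-voom (limma 3.58.1), marker covariates, a GC and length offset (natural splines with 5 degrees of freedom over genes at 1 CPM or more, GENCODE M21 transcripts, GC known for 99.9% of tested genes) and leaving out each library. Marker sums and member pairs were compared with exact permutation tests (Python 3.11.15, SciPy 1.17.1). Exon overlaps came from GENCODE M21 and promoters from RefSeq on GRCm38.p6.

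All 10 genes are named; each pathway list names its called genes and, where fewer than 2 passed, its smallest p-values up to 2. Each gene with at least 1 CPM also names its 2 most similar genes. The genes and lists were chosen with earlier results of these data known. The labels do not say that libraries came from separate animals, so p-values cover only the spread between samples, possibly technical. The libraries were not copies of each other (smallest chi-square per degree of freedom 43.1). Depth was 25304765 to 40950088 counts per library; limits from 0 counts cover counting error only. No batch is given.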

Additional observations from a re-analysis of the deposited data

Results flagged for a closer look

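Within-genotype outliers were looked for in 20 groups, the 10 genes in each genotype, where chance alone marks about 1 in 20. The Tlr2 level of WT D154, at 21.5 CPM, stood far from the other WT libraries, the next of which was at 16.4 CPM; the gap was 0.846 of the group's range. Tlr11 in CKO D149 stood at 0.302 CPM from 8 counts, where the other 3 CKO libraries had 0.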

How the results depend on the processing

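Of the 10 genes none was called except Unc93b1, 1 lower gene with no low-count filter, with a mean of at least 5 CPM, with DESeq2, and at a threshold of 0.1; over the fits that left out 1 library the count ran from 0 to 1. Over all genes the main counts of 1038 called, 503 higher and 535 lower became 1080 higher and 311 lower with total-count scaling, 342 (224 and 118) with the B cell covariate, 292 (113 and 179) with the cDC1 minus cDC2 covariate and 1975 (951 and 1024) with DESeq2. Leaving out a library gave 70 to 1468 (21 to 921 higher, 49 to 779 lower). The 4 pathway genes, all lower, became 2 with total-count scaling, 0 with the B cell covariate and 1 with the cDC1 minus cDC2 covariate, and 0 to 6 (0 to 1 higher, 0 to 5 lower) without a library; the higher gene was Hmgb1 without CKO D149. Signs of uncalled genes turned for Tlr2 with the B cell covariate (0.03), for Tlr9 with total-count scaling (0.08), the B cell covariate (0.07) and the GC and length offset (0.10), and for Slc15a4 in the same 3 settings (0.14, 0.09 and 0.09). Leaving out a library gave -0.21 to 0.10 for Tlr9 and -0.07 to 0.05 for Slc15a4. The cause of these moves was not tested. Without division by length, Slc15a4 stood in place 3 and Tlr2 in place 4 in WT. No paired analysis was possible because the genotypes share no replicate number. Depth limits Tlr3, Tlr11, Tlr9 and Tlr12, which had at most 100 counts in a library.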
